A study of Mus musculus with 4 samples.

Results

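The 10 genes described here encode the mTOR kinase, the defining subunits of its complexes, its direct upstream regulators and its best-known targets: Mtor, Rptor, Rictor, Tsc1, Tsc2, Rheb, Akt1s1, Rps6kb1, Rps6kb2 and Eif4ebp1. They were taken by symbol from a table of 22565 protein-coding genes, where each has 1 row, and all 10 passed the filters for low values used below. The set was chosen by function and Rps6kb1 was also selected on a measured value: its FPKM (fragments per kilobase of transcript, scaled to library total) had been seen to be higher in both knockout libraries, so its values are given as a description with no test.

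The RNA came from type II alveolar epithelial (AT2) cells, which make surfactant, isolated by flow cytometry from the lungs of mice aged 6 months. The KO group holds 2 libraries from Fbxo45-cKO mice and the WT group holds 2 libraries from wild-type mice, all untreated. The product of Fbxo45 recognises substrates for a ubiquitin ligase. The genotype label of KO replicate 2 reads Fbxo46 in place of Fbxo45, while its title puts it in the KO group. The labels name neither the Cre driver nor the deleted exons. They also do not say whether the replicates are different mice, so the p-values reflect a spread that could be technical only.

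The libraries held 9507431 and 7066424 fragments in KO replicates 1 and 2, and 4167114 and 8200174 in WT replicates 1 and 2. Fbxo45 was at 4.41 and 7.58 FPKM in the KO libraries, against 4.60 and 5.91 FPKM in the WT libraries, so the groups overlapped and the targeted gene's level does not tell the labels apart. Fbxo46 was at 3.82 and 4.80 FPKM in KO, against 4.13 and 3.79 FPKM in WT. All 10 AT2 markers were above 0 in every library. Sftpc, which encodes surfactant protein C, was at 54458 and 87684 FPKM in KO and at 101544 and 94984 FPKM in WT. The 10 markers differed in direction on FPKM. Their log2 differences, KO against WT, ran from -0.51 (Sftpc) and -0.37 (Nkx2-1) to 0.090 (Lamp3) and 0.27 (Etv5). KO replicate 1 also held RNA of fast skeletal muscle: 6 muscle markers summed to 827 and 6.00 FPKM in the KO libraries, against 0.159 and 8.36 FPKM in the WT libraries. Skeletal muscle also expresses mTOR pathway genes, and the part of this RNA in the values of KO replicate 1 was not tested. In bulk RNA, fewer cells of a type and less RNA per cell cannot be told apart.

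mTOR is a serine-threonine kinase that works in 2 complexes. mTORC1, which is marked by raptor, promotes protein and lipid synthesis when growth factors and amino acids are plentiful, and mTORC2, which is marked by rictor, phosphorylates AKT and related kinases. The small GTPase Rheb switches mTORC1 on at the lysosome, the TSC1-TSC2 complex switches Rheb off, and PRAS40, the product of Akt1s1, inhibits mTORC1 until it is phosphorylated. Active mTORC1 phosphorylates the S6 kinases and the translation repressor 4E-BP1. Most of this control acts on proteins, through phosphorylation and localisation, which RNA levels do not report.

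Between KO and WT, 0 of the 9 members other than Rps6kb1 passed an adjusted p of 0.05 on either deposited scale. On FPKM, limma called 0 of 11055 genes (0% called), with 535 at an unadjusted p under 0.05 and a lowest adjusted p of 0.948. On fragment counts, edgeR's quasi-likelihood test called 0 of 11705 genes (0% called), and 372 had an unadjusted p under 0.05. DESeq2 called 8 genes on the same counts. These totals depend on single libraries: limma called 134 genes without KO replicate 2 and 3 without WT replicate 2, and edgeR called 893 without KO replicate 1 and 1520 without KO replicate 2. With 1 library left in a group, that library is assumed to vary like those of the other group. The counts that follow leave out Rps6kb1, whose FPKM chose it. On FPKM, 4 of the 9 members had both KO values above both WT values, where 20.0% of all tested genes did, and 1 had both below, where 15.1% did. On CPM (counts scaled to library size after edgeR's TMM step), 1 of the 9 had both KO values above both WT values, where 15.8% of tested genes did, and 1 had both below, where 17.6% did. Groups that did not overlap in either direction thus made up 5 of 9 members on FPKM (35.1% of all tested genes) and 2 of 9 on CPM (33.4%). The log2 difference was above 0 in 7 of 9 members on both scales, where it was above 0 in 54.1% of genes on FPKM and 51.9% on counts. The median log2 difference of the 9 members was 0.11 on FPKM and 0.13 on counts, against 0.035 and 0.016 over all tested genes.

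The 2 scales gave different sizes for some members and the same size for others. FPKM divides by the length of the transcripts to which fragments were assigned, and counts do not. The count divided by the FPKM therefore gives a transcript length for each gene in each library, called the implied length here. It was scaled on between 470 and 618 genes per library with 1 annotated transcript, of which 82.3% to 83.3% came within 5% of the annotated length. Where a gene has several transcripts, the implied length is an average over them that leans to the short ones.

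**Figure D1:**
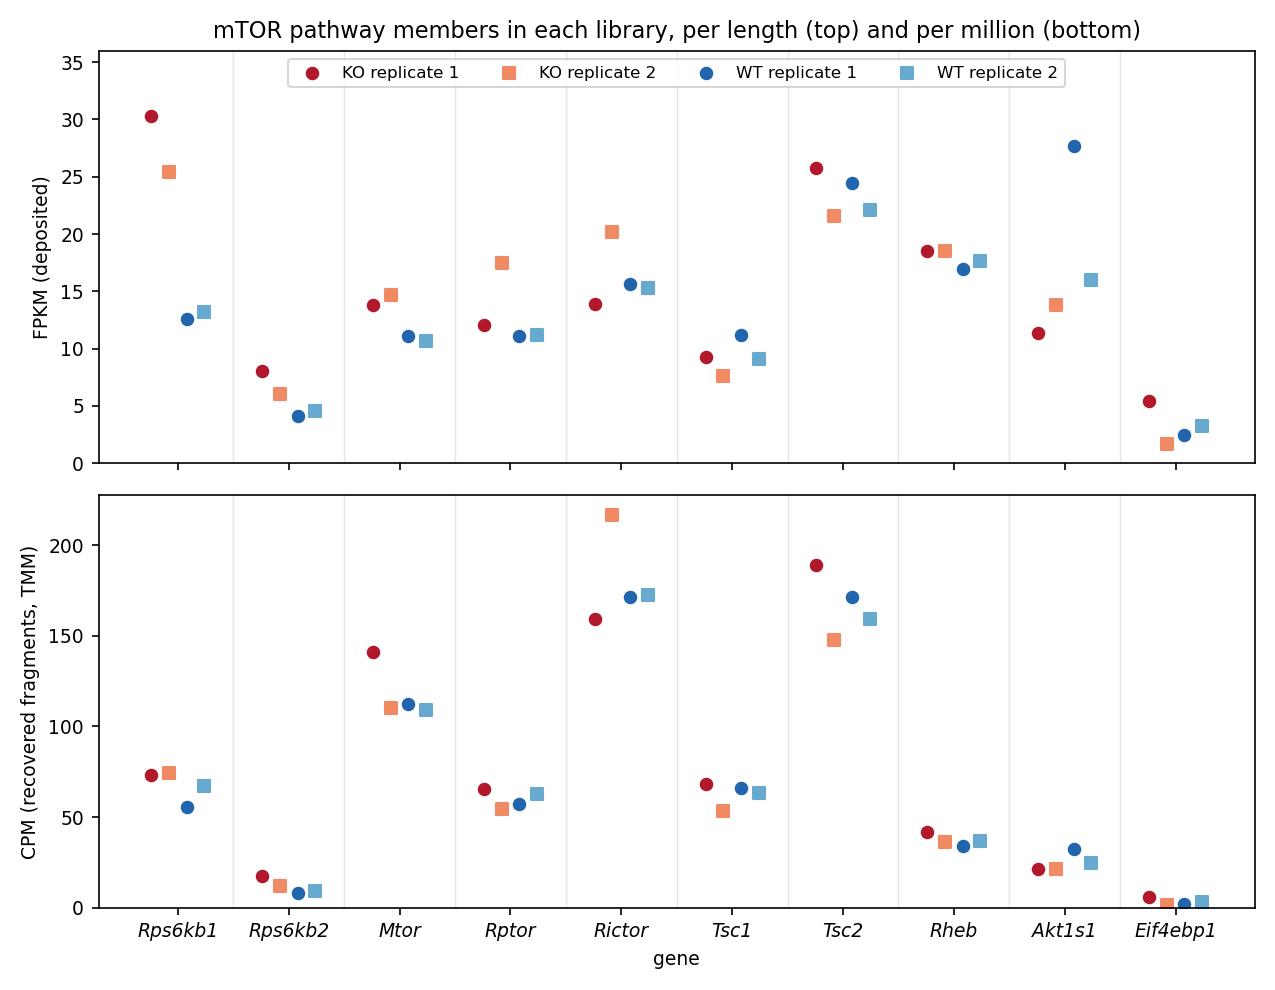
Level of each member in each library, as deposited FPKM (top) and as CPM of recovered fragments after TMM scaling (bottom), where each point is 1 library and both axes are linear and start at 0. Rps6kb1 stands apart on FPKM (30.3 and 25.4 in KO, 12.6 and 13.2 in WT) and much less on CPM (73.5 and 74.2 in KO, 55.4 and 67.1 in WT).

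The S6 kinases phosphorylate ribosomal protein S6 and other factors of translation and cell growth. Rps6kb1 (ENSMUSG00000020516), which encodes S6K1, lies on the minus strand of chromosome 11, 86498871 to 86544805 (mm10). It was at 30.3 and 25.4 FPKM in KO replicates 1 and 2, against 12.6 and 13.2 FPKM in WT replicates 1 and 2. Both KO values were above both WT values, and the means were 27.8 ± 3.44 FPKM in KO and 12.9 ± 0.429 FPKM in WT (SD, n = 2 each), a ratio of 2.16. On counts it had 704 and 521 fragments in KO and 233 and 541 in WT. Scaled for depth these were 73.5 CPM (exact binomial 95% interval 68.2 to 79.1) and 74.2 CPM (68.0 to 80.9) in KO, against 55.4 CPM (48.5 to 62.9) and 67.1 CPM (61.6 to 73.0) in WT. The intervals cover counting error only. The KO values were again above the WT values, but the ratio of means was 1.21, and the intervals of both KO libraries overlapped that of WT replicate 2. The log2 difference was 1.05 (SE 0.216) on log2(FPKM + 1) and 0.27 (SE 0.198) on counts, and the count value was 0.14 without WT replicate 1 and 0.42 without WT replicate 2.

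Because the implied length is made from the count and the FPKM, a gap between the scales appears in it by definition. The implied length of Rps6kb1 was 2064 and 2694 bases in KO replicates 1 and 2. It was 3866 and 4325 bases in WT replicates 1 and 2, so the groups did not overlap. GENCODE M21 lists 7 transcripts of the gene, 3 of them coding, at 5531, 3250 and 555 bases. On plain log2 values averaged over libraries, the difference in FPKM was 1.11 and that in deposited counts 0.29, which leaves a remainder of 0.82. The log2 difference in implied length, which is scaled separately in each library, was -0.79. Among 7780 tested genes with at least 50 fragments in every library, the median size of this remainder was 0.050. The remainder of Rps6kb1 contains the FPKM difference that chose the gene and is given as a description. In 283 of the 7780 genes (3.64%) the FPKM difference exceeded the count difference by more than 0.5, and in 52 (0.668%) it fell short by more than 0.5. The table gives values per gene and not per transcript, so it does not show which transcripts received the fragments.

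Rps6kb1 shares its locus in the table with Rnft1, which lies on the opposite strand at its 3′ end and overlaps it by 155 bases. Of the 100-base stretches in Rps6kb1 transcripts, 0.613% occur in transcripts of another gene on the opposite strand and 0% on the same strand. The library kit keeps strand, but no source used here gives the strand setting of the counting. Rnft1 was at 18.6 and 13.2 FPKM in KO and 17.5 and 14.8 FPKM in WT, with 265 and 312 fragments in KO and 171 and 358 in WT. Its log2 difference was -0.033 on FPKM (limma adjusted p = 0.990) and -0.24 on counts (edgeR adjusted p = 0.999). Its implied length also varied, at 1303 and 3066 bases in KO and 2125 and 2619 bases in WT. Tubd1, which encodes delta-tubulin, starts 186 bases upstream of Rps6kb1 on the opposite strand. Tubd1 was at 2.25 and 3.62 FPKM in KO and 1.76 and 2.63 FPKM in WT, where the groups overlapped (log2 difference 0.29, limma adjusted p = 0.961).

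The stretch between the starts of Rps6kb1 and Tubd1 is shown because both genes begin there, and the stretch before Mtor is shown beside it as that of another member whose FPKM was higher in both KO libraries. Both are from RefSeq (GRCm38.p6), 5′ to 3′ on the strand of the member, and end at the base before its RefSeq start. The first is chr11:86544808-86544990, minus strand, 183 bases with 60.1% G or C, and the second is chr4:148448332-148448581, plus strand, 250 bases with 54.4% G or C. Capitals mark motif matches on either strand, and matches of a motif that overlap count once. The GC box was searched as GGGCGG and the motif of ETS factors was searched as CCGGAAG. The CCAAT box was searched by the letters of its name. The E-box was searched as CACGTG, while for the TATA box the letters were TATAAA. For the core of the motif bound by NRF1 the letters searched were CGCATGC.
Rps6kb1: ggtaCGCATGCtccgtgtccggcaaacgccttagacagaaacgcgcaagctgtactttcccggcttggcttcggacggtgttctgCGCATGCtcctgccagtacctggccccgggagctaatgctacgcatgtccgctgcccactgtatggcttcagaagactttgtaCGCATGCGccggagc
Mtor: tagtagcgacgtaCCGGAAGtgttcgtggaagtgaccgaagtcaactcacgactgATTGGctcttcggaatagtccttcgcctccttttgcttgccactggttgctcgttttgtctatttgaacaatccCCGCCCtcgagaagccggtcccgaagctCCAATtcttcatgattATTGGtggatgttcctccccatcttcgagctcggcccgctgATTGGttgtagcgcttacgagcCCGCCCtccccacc
The Rps6kb1 stretch holds 3 NRF1 cores and none of the other motifs. The NRF1 core was added to the search after this sequence had been read. Of 32851 RefSeq windows of 250 bases before a start, 3.02% hold at least 1 NRF1 core and 7 hold 3 or more. The Mtor stretch holds 4 CCAAT boxes, 2 GC boxes and 1 ETS motif, which 33.8%, 32.7% and 6.91% of windows hold at least once. Rptor and Rheb were also higher on FPKM in both KO libraries, and their stretches are not shown. The 250 bases before Rptor hold none of the motifs, and those before Rheb hold 1 GC box and 1 E-box. A match is a description of letters. The table holds starts for 8 of the 10 members, not for Rps6kb2 and Eif4ebp1.

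Rps6kb2 (ENSMUSG00000024830, minus strand of chromosome 19, 4153991 to 4163354) encodes S6K2, the close relative of S6K1. It was at 8.05 and 6.04 FPKM in KO, against 4.13 and 4.53 FPKM in WT. The groups did not overlap, and the log2 difference was 0.58 (SE 0.273, limma unadjusted p = 0.0767, adjusted p = 0.948). It rested on 169 and 83 fragments in KO and 35 and 76 in WT, which gave 17.6 and 11.8 CPM in KO and 8.32 and 9.43 CPM in WT. The log2 difference on counts was 0.73 (SE 0.340, edgeR unadjusted p = 0.0743, adjusted p = 0.999). Without KO replicate 2 it was 0.99, and without KO replicate 1 it was 0.41, so its size differed between the KO libraries. Each of these fits leaves 1 KO library. Unlike Rps6kb1, its implied length stayed between 1869 and 1874 bases in all 4 libraries. Rps6kb2 overlaps Ptprcap, a leukocyte gene on the other strand, and 15.7% of its 100-base stretches occur in a transcript of the opposite strand. Ptprcap itself had 0 and 5 fragments in KO and 3 and 4 in WT.

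Eif4ebp1 (ENSMUSG00000031490, plus strand of chromosome 8, 27260329 to 27276674) encodes 4E-BP1, which holds the cap-binding factor eIF4E until mTORC1 phosphorylates it. It was the lowest member, at 5.45 and 1.71 FPKM in KO and 2.49 and 3.27 FPKM in WT. KO replicate 1 was the highest and KO replicate 2 the lowest of the 4 libraries. It had 57 and 11 fragments in KO and 10 and 26 in WT, and its CPM was 5.95 (exact binomial 95% interval 4.51 to 7.71) and 1.57 (0.782 to 2.80) in KO, against 2.38 (1.14 to 4.37) and 3.23 (2.11 to 4.73) in WT. It differed by 0.12 on the log2 scale on FPKM (SE 0.469; adjusted p = 0.986 in limma) and by 0.42 (SE 0.764, edgeR adjusted p = 0.999) on counts. The intervals of the 2 KO libraries did not overlap, so they differed from each other by more than counting error.

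**Figure D2:**
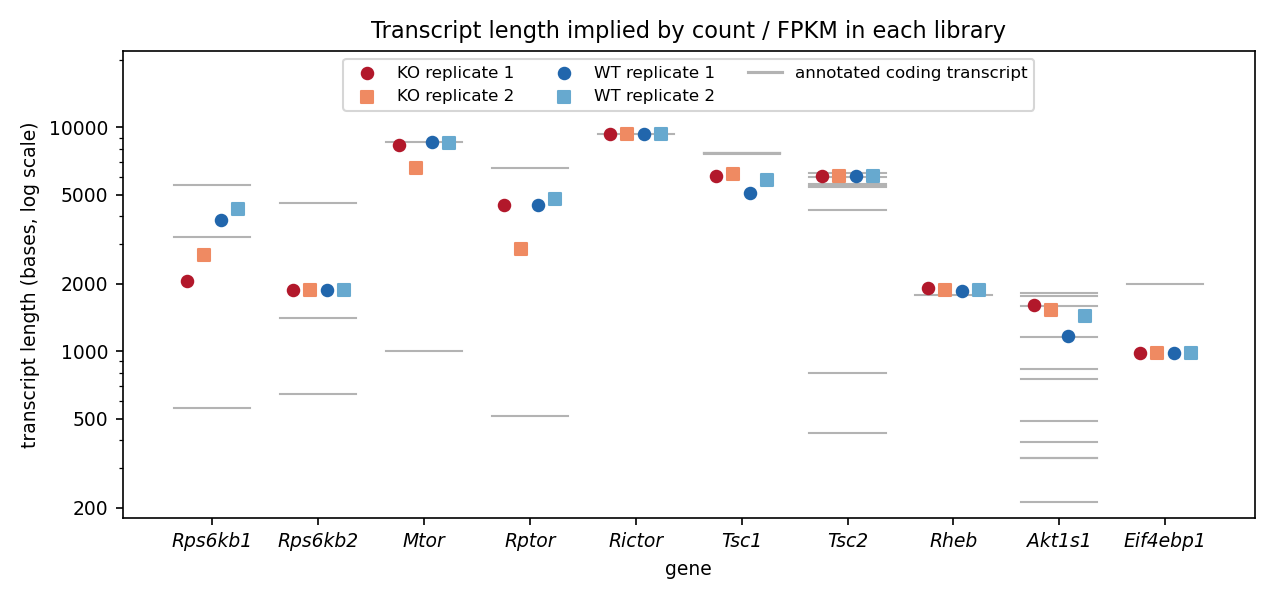
Transcript length implied by the deposited count and FPKM of each member in each library (points, log scale), with the lengths of its annotated coding transcripts as grey lines. The points of Rictor, Tsc2, Rps6kb2 and Eif4ebp1 coincide, while Rps6kb1 sits at 2064 and 2694 bases in KO and at 3866 and 4325 bases in WT.

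Mtor (ENSMUSG00000028991, plus strand of chromosome 4, 148448611 to 148557683) encodes the kinase itself. It was at 13.8 and 14.7 FPKM in KO, against 11.1 and 10.7 FPKM in WT. The groups did not overlap (means 14.3 ± 0.619 FPKM in KO and 10.9 ± 0.334 FPKM in WT, SD, n = 2 each). Mtor differed by 0.36 on the log2 scale (SE 0.218; adjusted p = 0.948 in limma). On counts Mtor was at 141 and 110 CPM in KO and 112 and 109 CPM in WT, where KO replicate 2 lay between the WT libraries (log2 difference 0.18, SE 0.197, edgeR adjusted p = 0.999). Leaving out KO replicate 2 gave a count difference of 0.36, and leaving out KO replicate 1 gave 0.0059. The implied length was 8340 bases in KO replicate 1, 6610 bases in KO replicate 2, and 8608 and 8509 bases in WT, beside annotated coding transcripts of 8564 and 1003 bases. In KO replicate 1 Mtor was thus higher by count, and in KO replicate 2 the implied length was shorter. Angptl7, which lies within Mtor on the opposite strand, had 10 fragments in KO replicate 1 and 0 in the other libraries.

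Rptor (ENSMUSG00000025583, plus strand of chromosome 11, 119602905 to 119899576) encodes raptor, which brings substrates to mTORC1. It was at 12.0 and 17.5 FPKM in KO, against 11.1 and 11.2 FPKM in WT. The groups did not overlap, and KO replicate 2 stood well above the rest (log2 difference 0.36, SE 0.260, limma adjusted p = 0.948). The count difference was 0.00021 (SE 0.204, edgeR adjusted p = 1.000), from 65.5 and 54.6 CPM in KO and 57.0 and 62.9 CPM in WT. By count, KO replicate 2 was the lowest of the 4. Its implied length was 2868 bases in KO replicate 2, against 4491 bases in KO replicate 1 and 4488 and 4769 bases in WT. The FPKM difference was 0.11 without KO replicate 2. Rptor has no neighbour in its locus and shares no 100-base stretch with another gene.

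Rictor (ENSMUSG00000050310, plus strand of chromosome 15, 6708379 to 6800401) encodes the subunit that defines mTORC2. It was at 13.9 and 20.2 FPKM in KO and 15.6 and 15.3 FPKM in WT. KO replicate 1 was below and KO replicate 2 above both WT libraries, by count as well (159 and 217 CPM in KO, 171 and 173 CPM in WT). The log2 difference was 0.11 on FPKM (SE 0.256, limma adjusted p = 0.982) and 0.13 on counts (SE 0.205, edgeR adjusted p = 0.999), and both were negative without KO replicate 2. The implied length was between 9351 and 9359 bases in every library, close to its 1 coding transcript of 9312 bases.

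Tsc1 (ENSMUSG00000026812, plus strand of chromosome 2, 28641228 to 28691167) encodes hamartin, the scaffold that stabilises tuberin. It was at 9.30 and 7.63 FPKM in KO and 11.2 and 9.08 FPKM in WT, where the groups overlapped (log2 difference -0.24, SE 0.252, limma adjusted p = 0.956). On counts the difference was -0.081 (SE 0.211, edgeR adjusted p = 0.999). Leaving out KO replicate 2 gave 0.10. Tsc2 (ENSMUSG00000002496, minus strand of chromosome 17, 24595816 to 24632630) encodes tuberin, the GTPase-activating protein for Rheb. It was at 25.7 and 21.6 FPKM in KO and 24.5 and 22.1 FPKM in WT, and the KO libraries enclosed the WT libraries. The log2 difference of Tsc2 was 0.020 on FPKM (SE 0.215, limma adjusted p = 0.993) and 0.028 on counts (SE 0.194, edgeR adjusted p = 0.999), with an implied length of 6043 to 6047 bases throughout. Tsc2 overlaps Pkd1, the gene of polycystin-1, by 693 bases tail to tail, and 5.66% of its stretches occur on the opposite strand. Pkd1 was at 8.07 and 11.8 FPKM in KO and 15.1 and 12.7 FPKM in WT, so both KO values were below both WT values (log2 difference -0.46, SE 0.270, limma adjusted p = 0.948). Nthl1, a DNA repair gene that starts 50 bases from Tsc2 on the other strand, had 15 fragments or fewer in each library.

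Rheb (ENSMUSG00000028945, minus strand of chromosome 5, 24802823 to 24842624) encodes the GTPase that activates mTORC1. It was at 18.5 and 18.5 FPKM in KO and 16.9 and 17.6 FPKM in WT, a ratio of means of 1.07 with no overlap (log2 difference 0.095, SE 0.206, limma adjusted p = 0.978). On CPM the groups overlapped, with 41.5 and 36.5 in KO and 34.0 and 36.6 in WT (log2 difference 0.14, SE 0.210, edgeR adjusted p = 0.999).

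Akt1s1 (ENSMUSG00000011096, plus strand of chromosome 7, 44848991 to 44855421), which encodes PRAS40, was the 1 member with both KO values below both WT values on both scales. It was at 11.3 and 13.8 FPKM in KO, against 27.7 and 16.0 FPKM in WT. The WT libraries differed more from each other than the nearest KO and WT libraries did (means 12.6 ± 1.74 FPKM in KO and 21.8 ± 8.28 FPKM in WT, SD, n = 2 each). Akt1s1 differed by -0.71 on the log2 scale (SE 0.312, limma unadjusted p = 0.0644, adjusted p = 0.948). Leaving out WT replicate 1 gave -0.33. On counts Akt1s1 was at 21.2 and 21.5 CPM in KO and 32.6 and 24.8 CPM in WT (log2 difference -0.42, SE 0.244, edgeR adjusted p = 0.999), or -0.22 without WT replicate 1. Its implied length was 1614 and 1530 bases in KO and 1167 and 1442 bases in WT, the reverse of the order seen for Rps6kb1. Akt1s1 overlaps Tbc1d17 by 89 bases head to head. Tbc1d17, which encodes a GTPase-activating protein for Rab GTPases, was at 17.1 and 18.0 FPKM in KO and 24.9 and 19.4 FPKM in WT, also with both KO values lower (log2 difference -0.31, SE 0.228, limma adjusted p = 0.948).

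**Figure D3:**
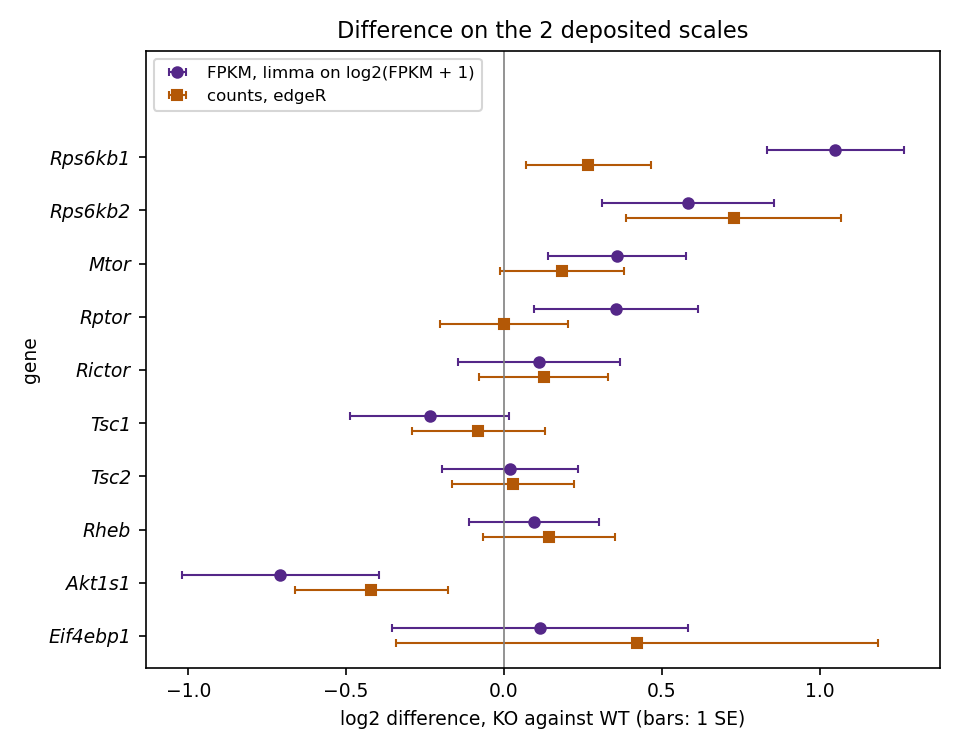
Log2 difference, KO against WT, of each member on log2(FPKM + 1) (circles) and on counts (squares), with bars of 1 SE from the fits. Rps6kb1 lies at 1.05 on FPKM and 0.27 on counts, Rptor at 0.36 and 0.00021, and the 2 values lie close together for Rictor, Tsc2 and Rheb.

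Per length, the order of the members in KO was Rps6kb1 (27.8 FPKM), Tsc2 (23.7), Rheb (18.5), Rictor (17.1), Rptor (14.7), Mtor (14.3), Akt1s1 (12.6), Tsc1 (8.47), Rps6kb2 (7.04) and Eif4ebp1 (3.58 FPKM). In WT the order was Tsc2 (23.3 FPKM), Akt1s1 (21.8), Rheb (17.3), Rictor (15.5), Rps6kb1 (12.9), Rptor (11.1), Mtor (10.9), Tsc1 (10.2), Rps6kb2 (4.33) and Eif4ebp1 (2.88 FPKM). In KO the ranges of neighbours overlapped between Rps6kb1 and Tsc2, Rheb and Rictor, Rictor and Rptor, Rptor and Mtor, and Tsc1 and Rps6kb2. In WT they overlapped between Tsc2 and Akt1s1, Akt1s1 and Rheb, Rptor and Mtor, and Mtor and Tsc1. Rps6kb1 exceeded Rps6kb2 per length in every library. The fifth place of Rps6kb1 in WT and its first place in KO carry the same difference in implied length as its FPKM.

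Taken one at a time, the KO libraries differed. Of the 9 members without Rps6kb1, 6 lay above both WT values on FPKM and 2 below both in KO replicate 1, where 40.2% and 38.9% of all tested genes did. In KO replicate 2, 5 of the 9 lay above and 4 below, where 45.4% and 34.2% of genes did. On CPM, 7 of the 9 lay above and 2 below in KO replicate 1 (39.4% and 39.9% of genes), and 2 above and 5 below in KO replicate 2 (39.4% and 40.6% of genes).

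The genes whose 4 FPKM values were most like those of Rps6kb1 were found by the root mean square distance between log2(FPKM + 1) values over the 4 libraries, each gene set to its own WT mean. They were Slc3a1 (distance 0.061), Slmap (0.077), Phf12 (0.089), Vps53 (0.097) and Lap3 (0.10). Slmap was at 54.4 and 43.7 FPKM in KO and 23.9 and 25.7 FPKM in WT, with implied lengths of 2083 and 3578 bases in KO and 4283 and 4349 bases in WT. Phf12 was at 40.5 and 32.2 FPKM in KO and 18.3 and 16.1 FPKM in WT, with implied lengths of 2281 and 1852 bases in KO and 3885 and 3641 bases in WT. Vps53 and Lap3 also had shorter implied lengths in both KO libraries than in either WT library. Since these genes were picked on FPKM and the implied length is the count over the FPKM, a shorter length follows wherever the count differs less than the FPKM does. On counts, these 4 differed by 0.21 (Phf12) to 0.56 (Vps53) on the log2 scale. Slc3a1, an amino acid transporter subunit, differed from the other 4, with an implied length of 2314 to 2316 bases in every library, 90 and 43 fragments in KO, 8 and 21 in WT, and a count difference of 1.76 (edgeR adjusted p = 0.999).

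Beyond the 10 members, 111 other genes of the pathway were found in the table from lists that were put together with earlier results of these data known. Of these, 98 were tested on FPKM, 52 with a log2 difference above 0 and 46 below, and 104 on counts, 51 above and 53 below. None of them passed an adjusted p of 0.05 in limma or edgeR, and their median log2 difference was 0.013 on FPKM and -0.0022 on counts. On FPKM, 17 of the 98 had both KO values above both WT values and 17 had both below, beside 20.0% and 15.1% of all tested genes.

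Among partner subunits of the complexes, 4 of 8 were higher and 4 lower on FPKM. Deptor, an inhibitor of mTOR, was at 30.3 and 32.1 FPKM in KO and 25.3 and 24.8 FPKM in WT (log2 difference 0.30, SE 0.196, and 0.27 on counts). Prr5, which encodes the mTORC2 subunit protor-1, was at 3.27 and 1.99 FPKM in KO and 5.89 and 6.73 FPKM in WT, with a log2 difference of -1.03 (SE 0.308) on FPKM and -1.29 on counts. Both KO values were below both WT values (limma adjusted p = 0.948). Telo2, which encodes a chaperone partner that helps assemble mTOR kinases, was at 3.47 and 8.51 FPKM in KO and 1.46 and 3.69 FPKM in WT. Its difference was 0.94 on FPKM and -0.26 on counts, beside an implied length of 569 bases in KO replicate 2 and 1975 to 3218 bases in the other libraries. Of 4 genes of the TSC complex and Rheb tested, 3 of them members, 2 were higher and 2 lower on FPKM. Tbc1d7, the third subunit of the TSC complex, was at 1.74 and 6.30 FPKM in KO and 4.61 and 3.92 FPKM in WT, and the KO libraries enclosed the WT libraries.

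The Rag GTPases and Ragulator hold mTORC1 at the lysosome when amino acids are present. Of 12 genes tested, 7 were higher and 5 lower on FPKM. Lamtor1, the Ragulator subunit that anchors the complex to the membrane, was at 21.1 and 15.6 FPKM in KO and 28.8 and 26.3 FPKM in WT (log2 difference -0.57, SE 0.235, and -0.52 on counts). Lamtor2 was at 13.7 and 10.6 FPKM in KO and 21.2 and 19.8 FPKM in WT (log2 difference -0.72, SE 0.233, and -0.77 on counts). Both genes, named for their small p on FPKM, had both KO values below both WT values, and the limma adjusted p was 0.948 for each. Of the 12, 3 had both KO values above both WT values and 2 had both below, beside 20.0% and 15.1% of all tested genes. Rragc, which encodes RagC, was at 55.4 and 28.6 FPKM in KO and 25.9 and 28.1 FPKM in WT, with an implied length of 1471 bases in KO replicate 1 and 2577 to 2613 bases in the others.

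GATOR1 restrains the Rag GTPases and is built from the products of Depdc5, Nprl2 and Nprl3. The list of GATOR, KICSTOR and amino acid sensor genes had 5 of 14 higher and 9 lower on FPKM. Nprl3 was at 13.1 and 9.62 FPKM in KO and 20.9 and 18.2 FPKM in WT (log2 difference -0.74, SE 0.248, and -0.47 on counts). Nprl2 was at 9.81 and 7.91 FPKM in KO and 7.01 and 5.83 FPKM in WT, with a difference of 0.41 (SE 0.257) on FPKM and 0.51 on counts. Depdc5 was at 16.7 and 22.2 FPKM in KO and 9.19 and 15.5 FPKM in WT, and its difference was 0.64 on FPKM but -0.17 on counts. The subunits of this complex thus differed from each other in direction, with none past the threshold.

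Of 24 upstream kinases and phosphatases tested on FPKM, 14 were higher and 10 lower. Pik3r2, which encodes a regulatory subunit of PI3-kinase, was at 10.2 and 9.44 FPKM in KO and 15.5 and 15.8 FPKM in WT (log2 difference -0.62, SE 0.218, and -0.46 on counts). Irs2, an adaptor of the insulin receptor, was at 13.7 and 20.9 FPKM in KO and 27.9 and 21.7 FPKM in WT (log2 difference -0.52, SE 0.281). Prkab1, which encodes a subunit of the energy sensor AMPK, was at 24.5 and 18.3 FPKM in KO and 32.3 and 28.0 FPKM in WT (log2 difference -0.49, SE 0.236). In these 3 genes, named for the smallest p of the list on FPKM, both KO values were below both WT values. The limma adjusted p was 0.948 for each. Of all 24, 4 had both KO values above both WT values and 4 had both below, beside 20.0% and 15.1% of all tested genes.

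Among direct substrates and genes of cap-dependent translation, 12 of 18 were higher and 6 lower on FPKM. Eif4b, which encodes a helicase cofactor that S6 kinases phosphorylate, was at 63.7 and 50.1 FPKM in KO and 47.3 and 46.1 FPKM in WT (log2 difference 0.27, SE 0.211, and 0.30 on counts). Maf1, which encodes a repressor of RNA polymerase III, was at 23.1 and 23.1 FPKM in KO and 29.1 and 26.3 FPKM in WT (log2 difference -0.25, SE 0.201, and -0.36 on counts). Ulk1, the kinase that starts autophagy, was at 2.44 and 12.1 FPKM in KO replicates 1 and 2, against 13.6 and 12.1 FPKM in WT. Its difference of -1.04 (SE 0.607) on FPKM thus came mostly from KO replicate 1, while its implied length was between 5235 and 5238 bases in all 4. KO replicate 1 is also the library with muscle RNA, whose part in this value was not tested.

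Of 7 mTORC2 substrates and outputs, 4 were higher and 3 lower on FPKM. Prkca, which encodes protein kinase C alpha, was at 6.73 and 7.77 FPKM in KO and 4.74 and 3.78 FPKM in WT, with a log2 difference of 0.65 (SE 0.266) on FPKM and 0.044 on counts. Ndrg1 was at 6.11 and 5.63 FPKM in KO and 4.81 and 2.46 FPKM in WT (0.61 on FPKM and 0.31 on counts), and Sgk3 was at 2.52 and 1.68 FPKM in KO and 1.70 and 1.49 FPKM in WT (0.24 and 0.0055). Of 10 ATF4-driven metabolic genes, which mTORC1 is reported to induce, 4 were higher and 6 lower on FPKM. Asns, which encodes asparagine synthetase, was at 3.97 and 2.96 FPKM in KO and 4.36 and 6.46 FPKM in WT (log2 difference -0.51, SE 0.312). Aldh18a1, an enzyme of proline synthesis, was at 1.21 and 1.29 FPKM in KO and 1.83 and 2.40 FPKM in WT (-0.46), and Slc7a5, a leucine transporter, was at 9.19 and 7.78 FPKM in KO and 14.8 and 9.96 FPKM in WT (-0.47). These 3, named for the smallest p of the list on FPKM, had both KO values below both WT values (limma adjusted p = 0.948 for each). Of the 10, 3 had both below and 0 had both above, beside 15.1% and 20.0% of all tested genes. On counts the differences were -0.70 (Asns), -1.11 (Aldh18a1) and -0.24 (Slc7a5). Asns rested on 34 to 80 fragments a library and Aldh18a1 on 25 to 80.

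The other ribosomal S6 kinase genes, which encode the RSK and MSK kinases and their relatives, are activated mainly outside the mTOR pathway. Of 4 tested on FPKM, 2 were higher and 2 lower, while of 6 tested on counts 1 was higher and 5 lower. Rps6ka3, which encodes RSK2, was at 47.0 and 44.8 FPKM in KO and 32.9 and 28.2 FPKM in WT. Its log2 difference was 0.58 (SE 0.201) on FPKM and -0.065 on counts, with an implied length of 2653 and 5338 bases in KO and 5662 and 6585 bases in WT. Rps6kc1, which encodes a kinase-like protein of the endosome, was at 15.3 and 18.3 FPKM in KO and 9.57 and 10.4 FPKM in WT. Its log2 difference was 0.69 (SE 0.228) on FPKM and -0.16 on counts, with an implied length of 2035 and 1815 bases in KO and 3548 and 3408 bases in WT. Both were named for their small p on FPKM. Neither passed the threshold on FPKM (limma adjusted p = 0.948 for each) or on counts (edgeR adjusted p = 0.999 for each). Rps6ka4, which encodes MSK2, was at 5.14 and 6.09 FPKM in KO and 7.86 and 7.77 FPKM in WT (log2 difference -0.42 on FPKM and -0.48 on counts), at an implied length of 3117 to 3118 bases.

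**Figure D4:**
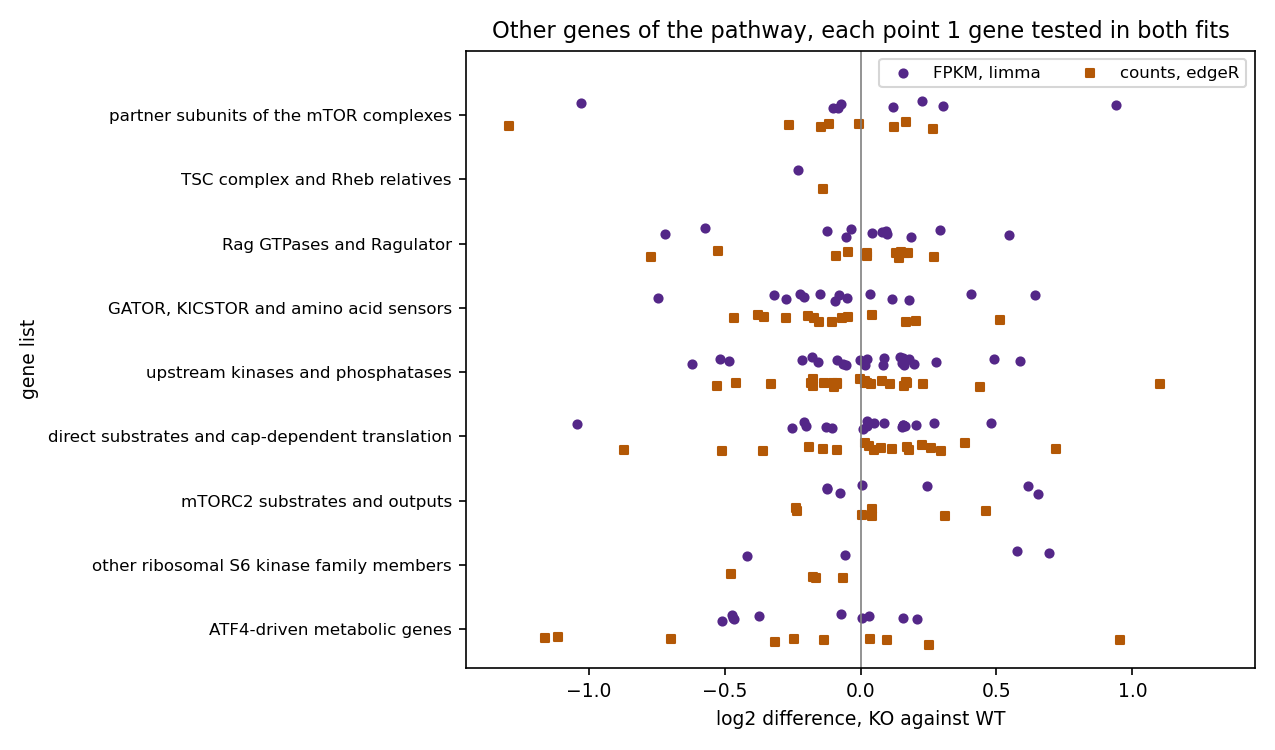
Log2 difference, KO against WT, of the other pathway genes tested in both fits, by list, with circles for FPKM and squares for counts (vertical scatter within a row carries no value). On FPKM 52 of 98 tested genes lie above 0 and 46 below, and Prr5 lies at -1.03 on FPKM and -1.29 on counts.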

How the data were processed

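RNA-seq of 2 KO and 2 WT libraries was analysed from 1 table with values per gene. Build mm10, HISAT2 2.0.4, cutadapt 1.9.3, Cufflinks and Cuffdiff 2.2.1 appear in the submitters' processing notes. The annotation release, the strand setting and the treatment of multiply mapped reads are not stated in the sources used here. FPKM values were made by the authors, per the file headers. The deposited counts are estimated counts: 90.9% to 92.6% of the positive values of a library were whole multiples (within 0.05) of 1 constant, by which they were divided before rounding to whole fragments.

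FPKM were tested with limma 3.58.1 (R 4.3.3; trend, log2(FPKM + 1), at least 1 FPKM in 2 of 4 libraries), which understates the change of low genes. Fragments were tested with edgeR 4.0.16 (quasi-likelihood, TMM, filterByExpr), with DESeq2 1.42.0 as an alternative. Both compared KO with WT with Benjamini-Hochberg adjustment over all genes tested, at 0.05. The SE on counts was derived from edgeR's F statistic. Other alternatives were the pseudocount, the filters, other scalings, no trend, a replicate block and leaving out each library. Leaving out genes with a shared locus was added after the data were examined.

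Members and lists were chosen with earlier results of these data known. Genes named are the members, Fbxo45 and Fbxo46, genes with the same locus, up to 3 per list by smallest unadjusted p on FPKM, and the 5 genes most like Rps6kb1, without predicted genes; Tubd1 and Nthl1 were named for their starts after the files were seen. Coordinates are from GENCODE M21 (mm10), 1-based.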

Additional observations from a re-analysis of the deposited data

How the results depend on the processing

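Without 1 library at a time, the number of genes called ranged from 0 to 134 on FPKM and from 1 to 1520 on counts. On counts, DESeq2 called 8 genes, edgeR with no filter 5 and edgeR with the replicate block 2; every other alternative run on either scale called 0. The difference of Rptor on counts (0.00021) turned to -0.0011 with deposited counts rounded as they stand, -0.0050 with the replicate block and -0.011 without genes that share a locus. Without 1 library, further differences changed sign. On FPKM these ranged from -0.10 to 0.14 for Tsc2, from -0.51 to 0.74 for Eif4ebp1 and from -0.14 to 0.37 for Rictor. On counts they ranged from -0.13 to 0.13 for Rptor, from -0.15 to 0.21 for Tsc2, from -0.85 to 1.06 for Eif4ebp1, from -0.10 to 0.34 for Rictor and from -0.26 to 0.10 for Tsc1. The cause of these changes was not tested. Across genes, the correlation r between the 2 KO libraries was 0.905 on FPKM and 0.928 on CPM. Between the 2 WT libraries r was 0.971 and 0.975. Pairs of 1 KO and 1 WT library lay between these, at 0.928 to 0.949 on FPKM and 0.949 to 0.957 on CPM. Each KO library was thus less like the other KO library than like either WT library. KO replicate differences were nearly uncorrelated with WT replicate differences across genes, which are not independent replicates (r = 0.026 on FPKM and 0.040 on counts). A low r cannot tell whether same-numbered libraries share a litter or batch, on which the labels are silent. Among the members, Eif4ebp1 had the fewest fragments, with 10 to 57 fragments a library.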
